A study of Mus musculus with 18 samples.

Results

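Fibroblast growth factor (FGF) signalling was followed here through 10 of its genes in mouse embryonic stem (ES) cells as they left naive pluripotency. The genes were the ligands Fgf4, Fgf5, Fgf8, Fgf15 and Fgf17, the receptors Fgfr1, Fgfr2, Fgfr3 and Fgfr4, and the binding protein Fgfbp3. They were picked by name, matched by Ensembl identifier, and make up 10 of the 53801 genes in the count table. All 10 were among the 18469 genes that passed the filter on low counts. RNA was sequenced from 18 libraries in 6 groups of 3. WT cells were E14TG2a ES cells. iEZR_CA cells were E14 cells with a PiggyBac insertion of a doxycycline-inducible, phosphomimetic and constitutively active ezrin, followed on the same transcript by mCherry. Ezrin ties the plasma membrane to cortical actin. Each line was sampled in 2i+LIF (ESC) and after 24 h (T24) or 48 h (T48) in N2B27, on gelatin. Doxycycline was given to iEZR_CA cells about 16 h before exit, and the labels name no such addition for WT cells, so the transgene, the drug and the separate history of the lines cannot be told apart. Whether iEZR_CA cells are a single clone is not given in the sources used here. The study gives the replicates as independent biological replicates, and the labels name each library only by its well.

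FGF ligands are secreted proteins that bind receptor tyrosine kinases together with heparan sulfate, and the receptors signal through adaptors and RAS to the kinases MEK and ERK. In mouse ES cells FGF4 is the main ligand that drives ERK, and this signal is needed for cells to leave naive pluripotency. The 2i medium blocks the pathway at MEK, downstream of the receptors, so ligand and receptor RNA in ESCs was measured with MEK inhibited in both lines. FGF5 is a marker of the early post-implantation epiblast, FGF8 and FGF17 are closely related ligands of the gastrulating and neural embryo, and FGF15 is an ileal hormone that is also made in the embryonic nervous system.

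Total counts on genes ran from 10940752 to 33276622 per library. Replicates differed by more than sampling noise in each of the 18 pairs, with chi-square values of 1.55 to 3.33 per degree of freedom, and the biological coefficient of variation was 2.98%. Ezr, the gene that the transgene encodes, was higher in iEZR_CA cells by 2.11, 2.70 and 1.61 times at ESC, T24 and T48, with no overlap between the lines. The 9 markers of naive and core pluripotency were detected in each group, with summed normalized counts of 131698 to 133368 in WT ESCs and 119968 to 121484 in iEZR_CA ESCs. In bulk RNA such as this, fewer cells of a type and less RNA per cell cannot be told apart. Values are normalized counts, that is counts divided by DESeq2 size factors, and are given in the order of replicates 1, 2 and 3, which were numbered in the order of the records and pair no libraries across groups. Log2 fold changes and adjusted p-values come from edgeR's quasi-likelihood test over all 18469 genes, with a threshold of 0.05. With this precision a large share of all genes passed in each direction between the lines, so a call alone can be a small change.

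Fgf4 and Fgf5 lead the ligand results, and Fgfr2 is the receptor that changed most during exit. Their promoters are shown to let the letters around each start be read next to the values. Each runs from 250 bases before to 50 bases after the RefSeq start on the gene's strand (GRCm38.p6), with matched motifs in capitals. The Fgf4 window is chr7:144861136-144861435 on the plus strand, inside the longer GENCODE gene model. The Fgf5 window is chr5:98253934-98254233, also on the plus strand. The Fgfr2 window is chr7:130266759-130267058 on the minus strand.
Fgf4: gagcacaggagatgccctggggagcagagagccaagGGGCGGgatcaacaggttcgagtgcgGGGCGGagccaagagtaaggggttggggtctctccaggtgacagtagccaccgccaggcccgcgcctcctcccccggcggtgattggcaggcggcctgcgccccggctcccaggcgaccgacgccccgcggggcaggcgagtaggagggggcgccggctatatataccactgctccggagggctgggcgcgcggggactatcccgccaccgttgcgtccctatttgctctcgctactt
Fgf5: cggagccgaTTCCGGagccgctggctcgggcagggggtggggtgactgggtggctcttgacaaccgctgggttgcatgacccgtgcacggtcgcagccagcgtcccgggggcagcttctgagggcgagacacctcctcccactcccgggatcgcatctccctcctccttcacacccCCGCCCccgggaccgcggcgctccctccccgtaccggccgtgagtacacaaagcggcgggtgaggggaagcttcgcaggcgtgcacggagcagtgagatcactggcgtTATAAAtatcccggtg
Fgfr2: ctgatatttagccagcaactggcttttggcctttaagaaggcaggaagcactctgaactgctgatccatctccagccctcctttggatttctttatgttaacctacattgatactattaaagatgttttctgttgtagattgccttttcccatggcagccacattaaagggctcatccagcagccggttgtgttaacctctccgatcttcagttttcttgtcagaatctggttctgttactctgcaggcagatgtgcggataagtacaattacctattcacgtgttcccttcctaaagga
The capitals in Fgf4 mark 2 GC boxes, at -214 and -188 from the start. In Fgf5 they mark an ETS core read on the opposite strand at -241 and a GC box on the opposite strand at -74. They also mark the letters TATAAA at +35, which lie after the start. No capital stands in the Fgfr2 window. Each motif was searched on both strands, in these windows and in all 32851 promoters of the same length. The GC box was spelled GGGCGG and stood in 35.7% of all promoters. For the ETS core the letters were CCGGAA, found in 14.9%. The TATA box was read as TATAAA, found in 13.6%. Other spellings, such as tatatata in the Fgf4 window, were not marked. Sites of OTX factors were written TAATCC, found in 7.06%. The TCF/LEF motif CTTTGAT was present in 3.73% of promoters and the octamer ATGCAAAT in 1.74%, and neither stands in a window of a member. The matches are letters in a window and were not tested as sites. The Fgf4 and Fgf5 windows held 69.7% and 68.3% G and C, the Fgfr2 window 43.7%, and the median promoter 52.7%. Of the other members with an entry, Fgfr4 held 4 GC boxes and an ETS core, and the Fgfr3 entries held 4 and 2 GC boxes. Fgfbp3 held a TATA box on the opposite strand and an OTX match.

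The ligands were compared to ask how each moved as WT cells left naive pluripotency and where iEZR_CA cells differed. Fgf4 was the most abundant ligand per length in each of the 6 groups, and its course differed between the lines. It lies on chromosome 7 (144847367 to 144865243, plus strand, GRCm38; ENSMUSG00000050917). WT ESCs held 7105, 6953 and 6718 normalized counts, WT T24 cells 9611, 9639 and 9358, and WT T48 cells 3385, 2895 and 2886. WT cells thus peaked at T24, and no library overlapped with another WT stage. Against ESCs the WT level rose at T24 (log2 fold change 0.45, SE 0.045, adjusted p = 7e-08), and from T24 to T48 it fell by 3.11-fold (-1.64, SE 0.048, adjusted p = 8e-16). In iEZR_CA cells the values were 6097, 6159.8 and 5778 in ESCs, 5771, 5553 and 5472 at T24 and 4492, 4564 and 4702 at T48. No peak stood at T24 there. The change over the first 24 h did not pass (-0.11, SE 0.047, adjusted p = 0.057, 95% interval -0.20 to -0.017), although it did by DESeq2 (adjusted p = 0.027), with DESeq2 size factors (0.049), with only the groups of the contrast in the fit (0.0026) and on leaving out WT T48 replicate 1, 2 or 3, iEZR_CA ESC replicate 3 or iEZR_CA T24 replicate 1 (0.0006 to 0.046). The fall from T24 to T48 was small (-0.29, adjusted p = 4e-05, or 0.27 with spike-in scaling). iEZR_CA cells therefore held less Fgf4 than WT cells at ESC (-0.21, SE 0.046, adjusted p = 0.00084) and at T24, where the ratio was 1.70 (-0.77, SE 0.046, adjusted p = 4.9e-11). At T48 they held more, by 1.50-fold (0.58, SE 0.049, adjusted p = 7e-09). The lines did not overlap at any stage. The call at ESC was lost when libraries were scaled to spike-in RNA (-0.21 became -0.16, adjusted p = 0.38).

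Fgf5 was close to absent in naive cells and became the second ligand per length in the 4 groups in N2B27. It lies on chromosome 5 (98254184 to 98277030, plus strand; ENSMUSG00000029337). WT ESCs held 6.74, 9.18 and 2.55 normalized counts and iEZR_CA ESCs 0, 0 and 2.80. At T24 WT cells had reached 1059, 1043 and 1047, whereas iEZR_CA cells stood at 132, 110.2 and 123. That gap of 8.74-fold (-3.13, SE 0.086, adjusted p = 5.8e-29) had no overlap between libraries. By T48 it was gone from the values, with 1364, 1197 and 1114 in WT and 1352, 1296 and 1358 in iEZR_CA cells. These overlapped, and the difference did not pass (0.12, SE 0.057, adjusted p = 0.06, 95% interval 0.011 to 0.23). Without WT T48 replicate 1, the highest WT library, iEZR_CA cells were called higher at T48 (log2 fold change 0.22, adjusted p = 0.00073), as they were without iEZR_CA ESC replicate 3 (0.041) and with no filter on low counts (0.015).

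The rise of Fgf5 fell mostly in the first 24 h in WT cells and was spread over both days in iEZR_CA cells. From ESC to T24 WT cells rose 164-fold (7.36, SE 0.15, adjusted p = 4.4e-34), and from T24 to T48 by a further 0.22 on the log2 scale (adjusted p = 0.00099), a step that lost its call without WT T48 replicate 1 (0.13, adjusted p = 0.052). In iEZR_CA ESCs the 3 libraries held 2 Fgf5 counts in all, so no fold change is given against them. The summed counts at T24 were 374, a ratio of 168 with an exact 95% counting interval of 46.3 to 1395. From T24 to T48 iEZR_CA cells rose 11.1-fold (3.48, SE 0.083, adjusted p = 3.9e-31). In ESCs WT libraries held 21 Fgf5 counts against those 2, a ratio of 8.76 (2.14 to 77.1, counting error only).

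Fgf15 showed the widest gap between the lines at T24. It lies 31.3 kb beyond the end of Fgf4 on the same strand of chromosome 7 (144896531 to 144900953; ENSMUSG00000031073). WT T24 cells held 366, 411 and 386 normalized counts and iEZR_CA T24 cells 17.5, 14.4 and 21.6, so that iEZR_CA cells were 21.8-fold lower (-4.44, SE 0.15, adjusted p = 3e-37). At T48 WT cells had come down to 192, 151 and 146, and iEZR_CA cells had risen to 84.5, 80.8 and 80.3. The remaining gap was 2.01-fold (-1.01, SE 0.12, adjusted p = 7.9e-11), again with no overlap. ESCs of both lines were low, with 4.50, 9.95 and 5.96 in WT and 2.21, 1.67 and 4.20 in iEZR_CA cells. From ESC to T24 Fgf15 rose 53.0-fold in WT cells (5.73, SE 0.17, adjusted p = 2.9e-40), then fell (-1.22, SE 0.097, adjusted p = 4.3e-18). In iEZR_CA cells it rose from T24 to T48 (2.21, SE 0.20, adjusted p = 1e-15). The 3 iEZR_CA ESC libraries held 7 counts in all, against 24 in WT ESCs, a ratio of 2.86 (counting interval 1.20 to 7.86), and against 55 in iEZR_CA T24 cells, a ratio of 7.07 (3.21 to 18.4). The call at ESC (adjusted p = 0.023) was lost with spike-in scaling (0.051), without WT ESC replicate 2 (0.19) and without iEZR_CA ESC replicate 1 (0.063) or 2 (0.13). Of the exonic bases of Fgf15, 25.7% are shared with the opposite-strand genes Gm26793 and Gm39119. Whether counting used strand is not given in the sources used here, so reads there cannot be assigned with certainty.

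Fgf3, which starts 9.3 kb before the start of Fgf4 in the same cluster of FGF genes, moved in another way. It fell from 185 ± 9.46 to 62.3 ± 10.4 normalized counts between WT ESCs and T24 cells (log2 fold change -1.53, adjusted p = 7.2e-17), while Fgf4 and Fgf15 rose in the same libraries. In iEZR_CA cells Fgf3 was lower than in WT at each stage, at 115 ± 4.68, 45.5 ± 8.58 and 31.4 ± 2.98 normalized counts, with log2 fold changes of -0.68, -0.54 and -0.62 (adjusted p = 1.1e-06, 0.0057 and 0.0054). Fgf15 and Fgf3 thus shared the lower side in iEZR_CA cells at all 3 stages, and Fgf4 did not.

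Fgf17 was detected in naive WT cells and almost missing from iEZR_CA cells at all stages. It lies on chromosome 14 (70636203 to 70642268, minus strand; ENSMUSG00000022101). WT cells held 82.0, 126 and 123 normalized counts in ESCs, 82.4, 80.8 and 97.7 at T24 and 41.0, 30.6 and 18.8 at T48. The iEZR_CA libraries held 2.21, 0.837 and 4.20, then 6.75, 10.6 and 4.69, then 6.69, 6.92 and 4.80. The highest iEZR_CA library lay below the lowest WT library. In ESCs the summed counts were 382 in WT and 6 in iEZR_CA cells, a ratio of 53.1 with a counting interval of 24.2 to 146. The log2 fold change was -3.46 at T24 (SE 0.27, adjusted p = 4.2e-17) and -2.24 at T48 (SE 0.35, adjusted p = 1.4e-07). From T24 to T48 Fgf17 fell in WT cells (-1.50, SE 0.20, adjusted p = 3.5e-09), while iEZR_CA cells showed no called change over that day (-0.28, 95% interval -1.22 to 0.67). The smaller fall in WT cells from ESC to T24 (-0.41, adjusted p = 0.018) overlapped between libraries and was not called by DESeq2 (adjusted p = 0.16), with spike-in scaling (0.32), or without WT ESC replicate 2 (0.14) or 3 (0.081) or WT T24 replicate 1 (0.077) or 2 (0.068). In iEZR_CA cells 6 counts in ESCs stood against 24 at T24, a ratio of 3.60 (1.43 to 10.8), and the call of that rise (adjusted p = 0.016) was lost without iEZR_CA ESC replicate 2 (0.13) or iEZR_CA T24 replicate 2 (0.16).

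Genes around Fgf17 were also lower in iEZR_CA cells. Of the 47 protein-coding genes that start within 5 Mb of it and had a mean normalized count of at least 50, 43 were called lower at ESC, 44 at T24 and 42 at T48, where 28.1%, 30.1% and 30.1% of all genes were. Their median log2 fold changes were -0.99, -0.91 and -0.87, and those of the 377 such genes of the whole chromosome -0.50, -0.45 and -0.34. Fgf17 itself lay below each of these neighbours at ESC and T24. At T48 only Pnma2 and Dpysl2, named after their values were seen, lay lower. The gap of Fgf17 was thus larger than that of most of these neighbours, most so at ESC, where its iEZR_CA libraries were at the floor. Genes of the block with a lower mean count were left out and not compared.

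**Figure D1:**
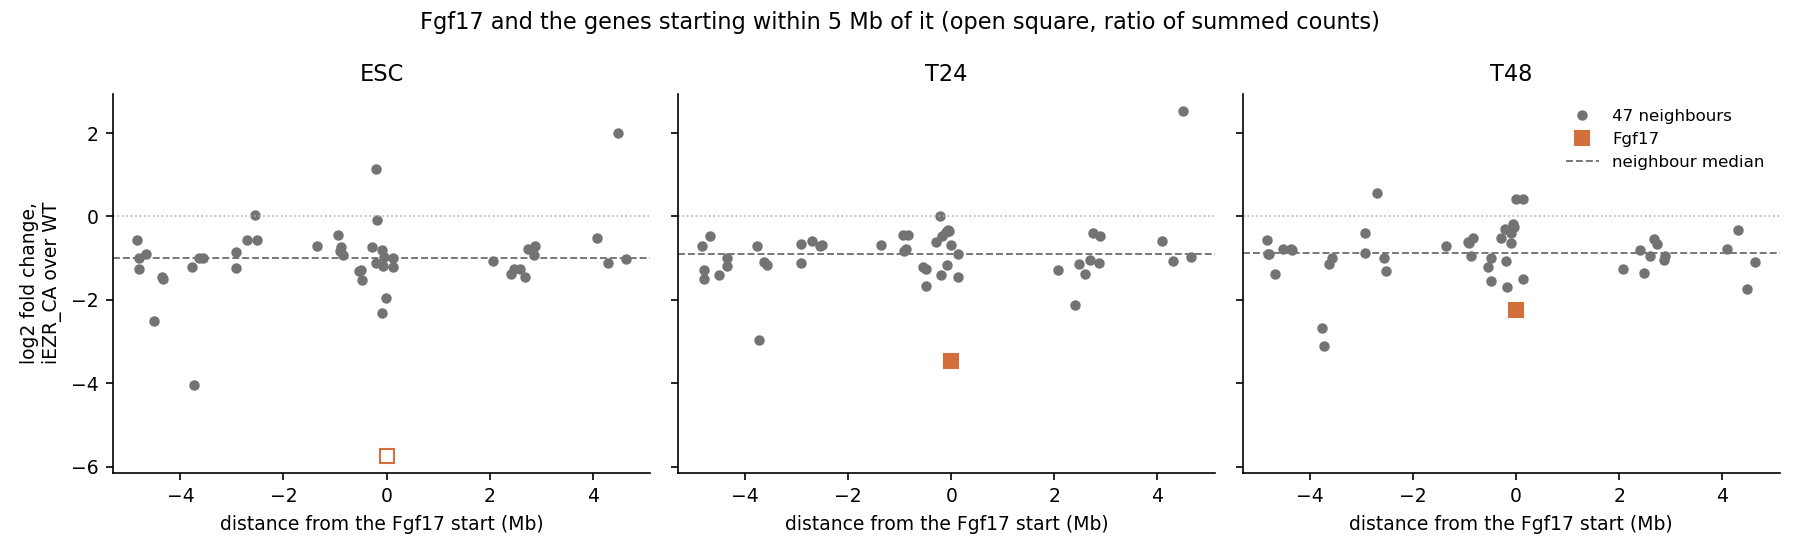
Log2 fold change of iEZR_CA over WT (vertical axis) for Fgf17 (orange square) and the 47 neighbouring genes (grey points), against distance from the start of Fgf17 in Mb (negative, towards lower coordinates), in 1 panel for each stage. The dashed line is the median of the neighbours, at -0.99, -0.91 and -0.87, and the open square at ESC is the ratio of summed counts.

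Fgf8, the closest relative of Fgf17 among the members, was low throughout. WT cells held 6.74, 7.65 and 10.2 normalized counts in ESCs, 9.02, 5.05 and 7.88 at T24 and 24.0, 17.2 and 9.82 at T48, and iEZR_CA cells 5.54, 5.02 and 4.20, then 6.75, 2.28 and 1.88, then 14.2, 14.6 and 7.19. ESCs of the lines did not overlap, the later stages did, and each group overlapped with the next in order of mean, and the highest mean was 4.68 times the lowest. The lines did not differ at the threshold, with 95% intervals of the log2 fold change of -1.72 to 0.25 at ESC, -2.29 to -0.10 at T24 and -1.11 to 0.24 at T48. At T24 the adjusted p of 0.058 fell to 0.04 without WT T24 replicate 2 and to 0.018 without iEZR_CA T24 replicate 1. From T24 to T48 Fgf8 rose in WT cells (1.17, SE 0.39, adjusted p = 0.0067), a call lost without WT T48 replicate 1 (0.69, adjusted p = 0.21), and in iEZR_CA cells (1.93, SE 0.49, adjusted p = 0.00057, or 2.51 without iEZR_CA T24 replicate 1). Fgf8 lies on chromosome 19 (45736798 to 45742915, minus strand; ENSMUSG00000025219).

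**Figure D2:**
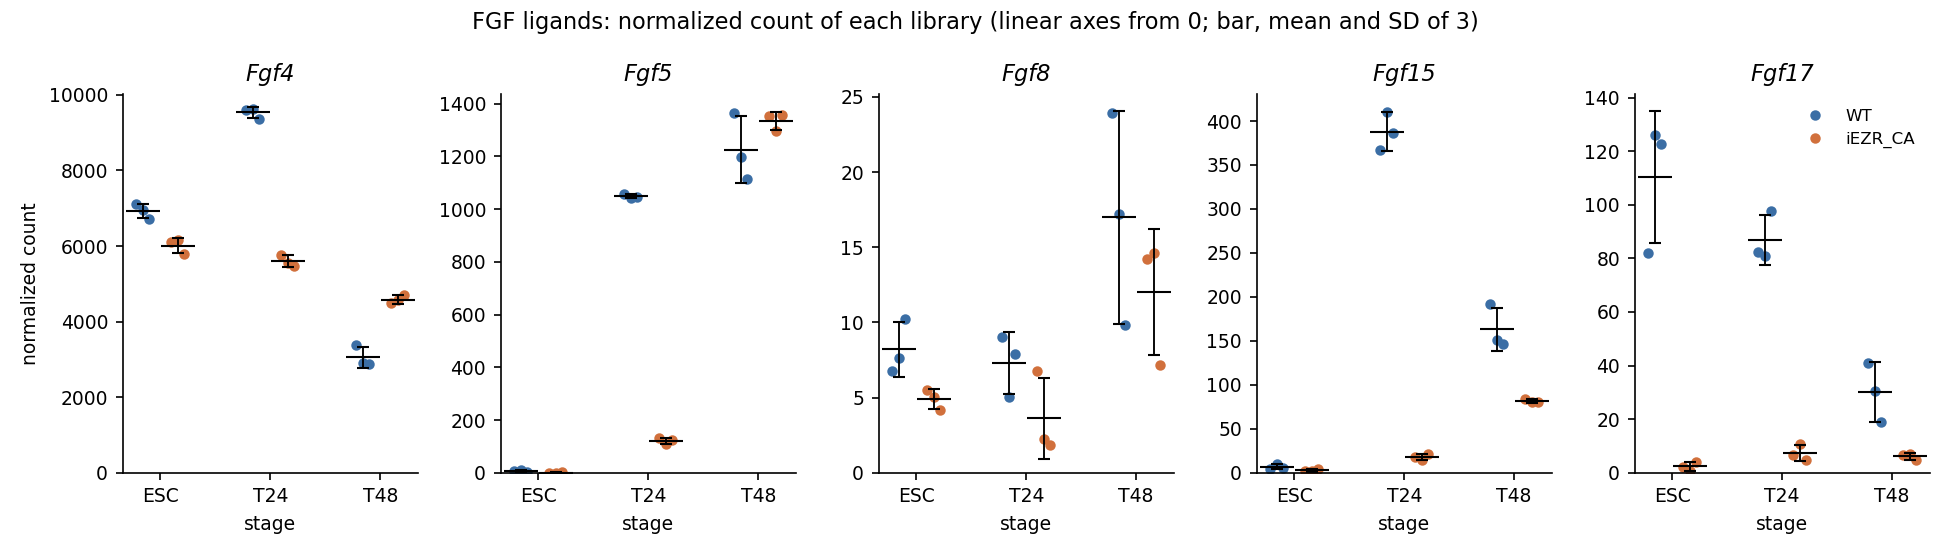
Normalized count (vertical axes, linear from 0, a separate scale for each gene) of the 5 ligands in each library by stage, WT in blue and iEZR_CA in orange; black bars are the mean and SD of 3 libraries. Fgf4 peaks at T24 in WT cells, Fgf5 and Fgf15 rise later in iEZR_CA cells, and Fgf17 lies near 0 in iEZR_CA cells.

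Fgfr1, a receptor of FGF4, was the most abundant receptor per length in each group and the steadiest member. Its highest group mean was 1.42 times its lowest. It lies on chromosome 8 (25513654 to 25575718, plus strand; ENSMUSG00000031565). WT cells held 3668, 3748 and 3637 normalized counts in ESCs, 3213, 3184 and 3184 at T24 and 3163, 3189 and 3180.3 at T48. The iEZR_CA libraries held 4438, 4259.7 and 4396, then 4538, 4517 and 4507, then 3961, 4025 and 3933. Each iEZR_CA library thus lay above each WT library, at any stage. The log2 fold change of iEZR_CA over WT was 0.24 at ESC (SE 0.028, adjusted p = 4.6e-11), 0.50 at T24 (SE 0.028, adjusted p = 6.1e-25) and 0.33 at T48 (SE 0.029, adjusted p = 2.7e-16). With spike-in scaling the value at ESC was 0.29 and did not pass (adjusted p = 0.061). The 45 genes around Fgfr1, chosen by the same window, had medians of 0.21, 0.38 and 0.36, and the 611 such genes of chromosome 8 had medians of 0.21, 0.27 and 0.23. Fgfr1 lay above 25, 27 and 21 of its 45 neighbours, so its difference was of the size common to that region.

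Over time Fgfr1 fell a little in WT cells from ESC to T24 (-0.22, SE 0.029, adjusted p = 5.5e-10) and then stayed within a 95% interval of -0.068 to 0.046. In iEZR_CA cells the change to T24 lay within -0.006 to 0.10 and did not pass (adjusted p = 0.14), but did with only the groups of the contrast in the fit (0.065, adjusted p = 0.028), and the libraries did not overlap. The level fell from T24 to T48 (-0.18, SE 0.028, adjusted p = 3.7e-08). Neither fall was called with spike-in scaling, where the log2 fold changes were -0.084 (adjusted p = 0.62) and -0.076 (0.67). Fgfr1 RNA says nothing of how much receptor stands at the cell surface or is taken up.

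Fgfr2 was the receptor that rose, in both lines and over both days. It lies on the minus strand of chromosome 7 (130162451 to 133123350 in the annotation, which counts a readthrough transcript; ENSMUSG00000030849), and 3.0% of its exonic bases are shared with Ctbp2. WT cells went from 174, 178 and 160.1 normalized counts in ESCs to 262, 268 and 307 at T24 and 803, 941 and 1019 at T48. The iEZR_CA cells went from 146, 156 and 181 to 406, 476 and 409 and 1296, 1289.5 and 1221. ESCs of the lines overlapped, and later stages did not. The lines did not differ at the threshold in ESCs (-0.11, 95% interval -0.34 to 0.12, adjusted p = 0.47). iEZR_CA cells were higher at T24 by 1.59-fold (0.67, SE 0.088, adjusted p = 3.2e-08) and at T48 by 1.39-fold (0.48, SE 0.062, adjusted p = 2.6e-08). The daily steps were log2 0.67 and 1.74 in WT cells (adjusted p = 5.8e-07 and 1.2e-20) and 1.44 and 1.55 in iEZR_CA cells (adjusted p = 4.7e-15 and 9.3e-21). iEZR_CA cells thus rose more over the first 24 h, by 0.77 on the log2 scale for the interaction of line and time (SE 0.15, adjusted p = 5.2e-05).

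Fgfr4 parted between the lines late. It lies on chromosome 13 (55152640 to 55168759, plus strand; ENSMUSG00000005320). WT cells held 38.2, 26.0 and 38.3 normalized counts in ESCs, 49.0, 55.5 and 61.5 at T24 and 24.7, 28.7 and 22.9 at T48, and iEZR_CA cells 39.9, 36.0 and 35.0, 74.2, 65.3 and 76.9 and 62.7, 56.2 and 52.8. Both lines rose to T24 (WT 0.67, SE 0.18, adjusted p = 0.0012 and iEZR_CA 0.95, SE 0.18, adjusted p = 5.2e-06). WT cells then fell (-1.12, SE 0.20, adjusted p = 1.7e-06). In iEZR_CA cells the change did not pass (-0.31, SE 0.16, adjusted p = 0.081, 95% interval -0.62 to -0.005), although the libraries did not overlap. At T48 iEZR_CA cells held 2.33 times the WT level (1.22, SE 0.20, adjusted p = 1.8e-07), with no overlap. At T24 the difference was small (0.41, SE 0.16, adjusted p = 0.023) and rested on single libraries and on the tool. It was not called by DESeq2 (adjusted p = 0.084), with spike-in scaling (0.07), or without WT T24 replicate 1 (0.16) or iEZR_CA T24 replicate 1 (0.05) or 3 (0.094). In ESCs the interval was -0.27 to 0.53.

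Fgfr3 stayed low and noisy. WT cells held 2.25, 10.7 and 13.6 normalized counts in ESCs, 11.6, 6.06 and 4.73 at T24 and 26.3, 17.2 and 24.6 at T48, and iEZR_CA cells 5.54, 13.4 and 9.80, 4.05, 20.5 and 26.3 and 25.1, 33.9 and 33.6. At T24 the iEZR_CA libraries spread over a range that held all 3 WT values, and the call there (1.12, SE 0.44, adjusted p = 0.027) was lost without WT T24 replicate 2 (0.1) or 3 (0.074) or iEZR_CA T24 replicate 2 (0.1) or 3 (0.18). Without WT T24 replicate 1 the log2 fold change was 1.72. The other stages gave intervals of -0.91 to 1.03 in ESCs and -0.25 to 0.98 at T48. Fgfr3 rose in WT cells from T24 to T48 (1.49, SE 0.42, adjusted p = 0.0021, or 2.09 without WT T24 replicate 1). In iEZR_CA cells the same step did not pass (0.73, adjusted p = 0.054), but did with spike-in scaling (0.017), with no filter on low counts (0.025), with only the groups of the contrast in the fit (0.04) and on leaving out WT ESC replicate 1 or 3, WT T24 replicate 1, iEZR_CA ESC replicate 1, iEZR_CA T24 replicate 3 or iEZR_CA T48 replicate 1 (0.012 to 0.05). From ESC to T24 it did not pass in iEZR_CA cells either (0.88, adjusted p = 0.086), but did with spike-in scaling (0.021), with no filter on low counts (0.044) and without WT ESC replicate 1 (0.046) or iEZR_CA T24 replicate 1 (0.005). Fgfr3 lies on chromosome 5 (33721674 to 33737068, plus strand; ENSMUSG00000054252) and shares 13.9% of its exonic bases with the opposite-strand gene G630022F23Rik.

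Fgfbp3, which encodes a secreted carrier that binds FGFs, parted between the lines only at T48 by these tests. It lies on chromosome 19 (36917550 to 36919615, minus strand; ENSMUSG00000047632). WT cells held 25.9, 21.4 and 18.7 normalized counts in ESCs, 20.6, 19.2 and 18.9 at T24 and 128, 138 and 141 at T48. iEZR_CA cells held 22.1, 17.6 and 26.6, 28.3, 21.3 and 24.4 and 43.5, 33.1 and 39.6. The late rise was steep in WT cells (6.76-fold, 2.76, SE 0.18, adjusted p = 2.1e-22) and shallow in iEZR_CA cells (1.60-fold, 0.68, SE 0.21, adjusted p = 0.0048), where the call was lost without iEZR_CA T24 replicate 2 (0.051). At T48 iEZR_CA cells were 3.48-fold lower (-1.80, SE 0.15, adjusted p = 7.9e-17), with no overlap. Differences in ESCs and at T24 lay within -0.52 to 0.47 and -0.21 to 0.77. At T24 the libraries did not overlap, with iEZR_CA cells the higher, but the difference did not pass (0.28, SE 0.25, adjusted p = 0.34). All 45 neighbours of Fgfbp3, chosen by the rule used for Fgf17, had a higher log2 fold change at T48 than Fgfbp3 itself.

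**Figure D3:**
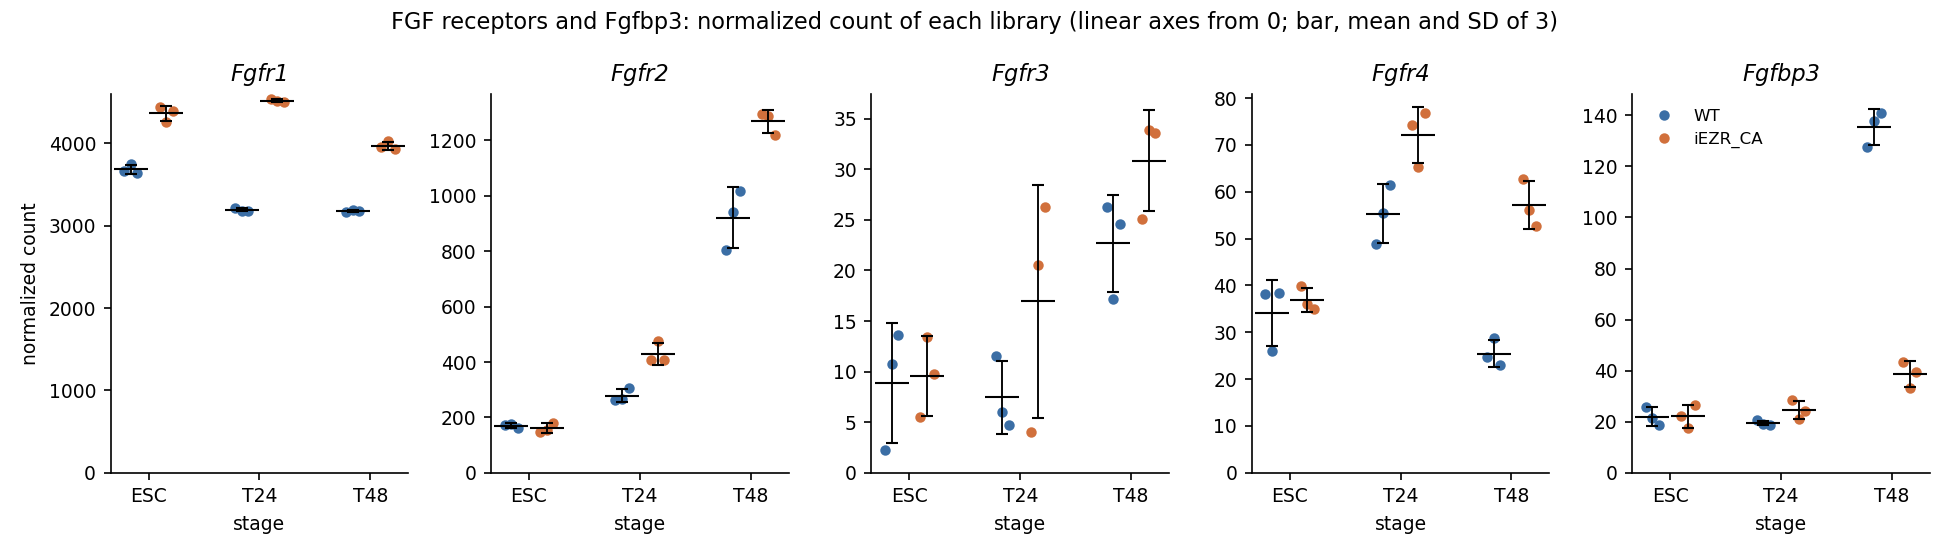
Normalized count (vertical axes, linear from 0, a separate scale for each gene) of the 4 receptors and Fgfbp3 in each library by stage, WT in blue and iEZR_CA in orange; black bars are the mean and SD of 3 libraries. Fgfr1 is higher in each iEZR_CA library, Fgfr2 rises in both lines, Fgfr4 stays up and Fgfbp3 rises little in iEZR_CA cells at T48.

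Over the 10 members, iEZR_CA ESCs were higher than WT ESCs for 1 (Fgfr1) and lower for 4 (Fgf4, Fgf5, Fgf15 and Fgf17), where 26.4% of all genes tested were higher and 28.1% lower. At T24, 4 were higher (the receptors, of which the calls of Fgfr3 and Fgfr4 were lost under several alternatives) and 4 lower (Fgf4, Fgf5, Fgf15 and Fgf17), with 30.8% and 30.1% of all genes. At T48, 4 were higher (Fgf4, Fgfr1, Fgfr2 and Fgfr4) and 3 lower (Fgf15, Fgf17 and Fgfbp3), with 31.0% and 30.1% of all genes. With such shares among all genes the counts say little about the members, and the sizes of the differences carry the description. The median log2 fold change of the members was -0.16, -0.24 and 0.23 at the 3 stages, and that of all genes -0.009, -0.002 and 0.

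Between stages the same counts were as follows. From ESC to T24, 5 members rose and 2 fell in WT cells (all genes 31.8% and 33.6%), and 5 rose and 0 fell in iEZR_CA cells (27.1% and 28.9%). Beside the 0, edgeR gave 1 member (Fgf4) a fall at an unadjusted p under 0.05, and DESeq2 called 1 lower. From T24 to T48, 5 rose and 4 fell in WT cells (32.8% and 32.9%), and 5 rose and 2 fell in iEZR_CA cells (29.6% and 30.0%). For the interaction of line and time from ESC to T24, 3 members were higher and 2 lower in iEZR_CA cells (21.5% and 16.9%), and from ESC to T48, 6 were higher and 1 lower (25.7% and 20.0%). The comparisons with a shared group are not independent of each other.

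**Figure D4:**
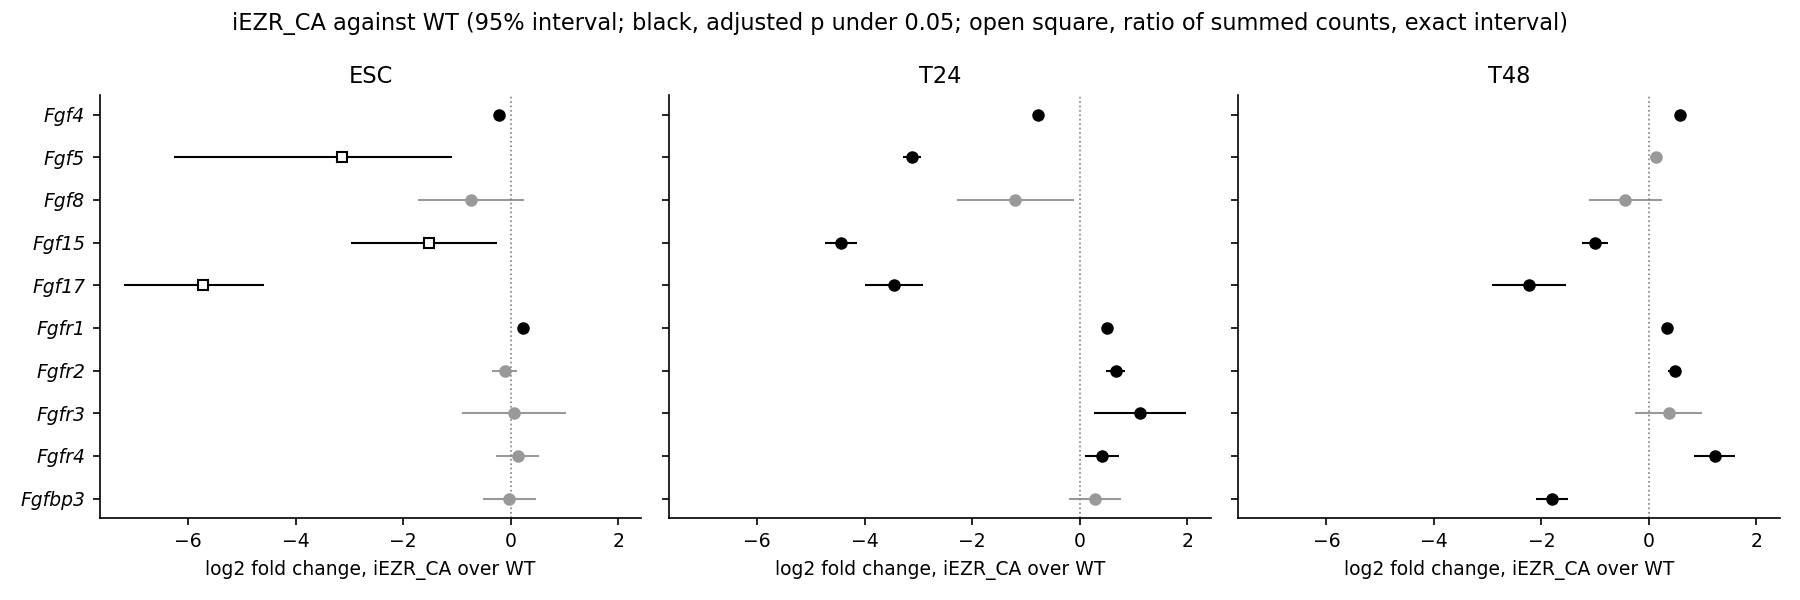
Log2 fold change of iEZR_CA over WT (horizontal axis) with its 95% interval for the 10 members at each stage, with black for an adjusted p under 0.05 and grey otherwise. Open squares at ESC are ratios of summed counts with exact counting intervals, since the iEZR_CA ESC libraries held 3 counts or fewer each. Fgf15 lies farthest to the left at T24, at -4.44.

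Levels of different genes were set side by side only per kilobase of exon. The 4 receptors summed to 401 ± 4.66 normalized counts per kilobase in WT ESCs, 367 ± 2.82 at T24 and 421 ± 11.3 at T48, and to 469 ± 9.45, 522 ± 2.33 and 546 ± 8.73 in iEZR_CA cells. Fgfr1 made up 93.2%, 88.1% and 76.4% of that sum in WT cells at the 3 stages, and 94.2%, 87.7% and 73.7% in iEZR_CA cells. Fgfr2 went from 4.12% through 7.35% to 21.1% in WT and from 3.32% through 7.97% to 22.5% in iEZR_CA cells. Fgfr4 held between 1.71% and 4.25%, or 0.90% and 2.33% with the longest transcript as length, and Fgfr3 below 0.8% in each group. The receptor mix of the lines thus moved along similar shares, while the sum was higher in iEZR_CA cells, with no overlap at any stage.

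The ligand mix moved apart in the middle of exit. The 5 ligands summed to 2244 ± 50.9 normalized counts per kilobase in WT ESCs, 3588 ± 44.2 at T24 and 1530 ± 158 at T48, and to 1888 ± 62.5, 1814 ± 53.0 and 2009 ± 35.1 in iEZR_CA cells. Fgf4 made up 96.6%, 83.2% and 62.6% in WT cells and 99.7%, 96.6% and 71.5% in iEZR_CA cells. Fgf5 made up 0.109%, 11.7% and 32.0% in WT cells, against 0.0205%, 2.68% and 26.6% in iEZR_CA cells. At T24 Fgf15 made up 3.54% in WT and 0.322% in iEZR_CA cells, or 5.58% and 0.516% with the longest transcript. These shares depend on the gene length used and are a description, with no test.

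**Figure D5:**
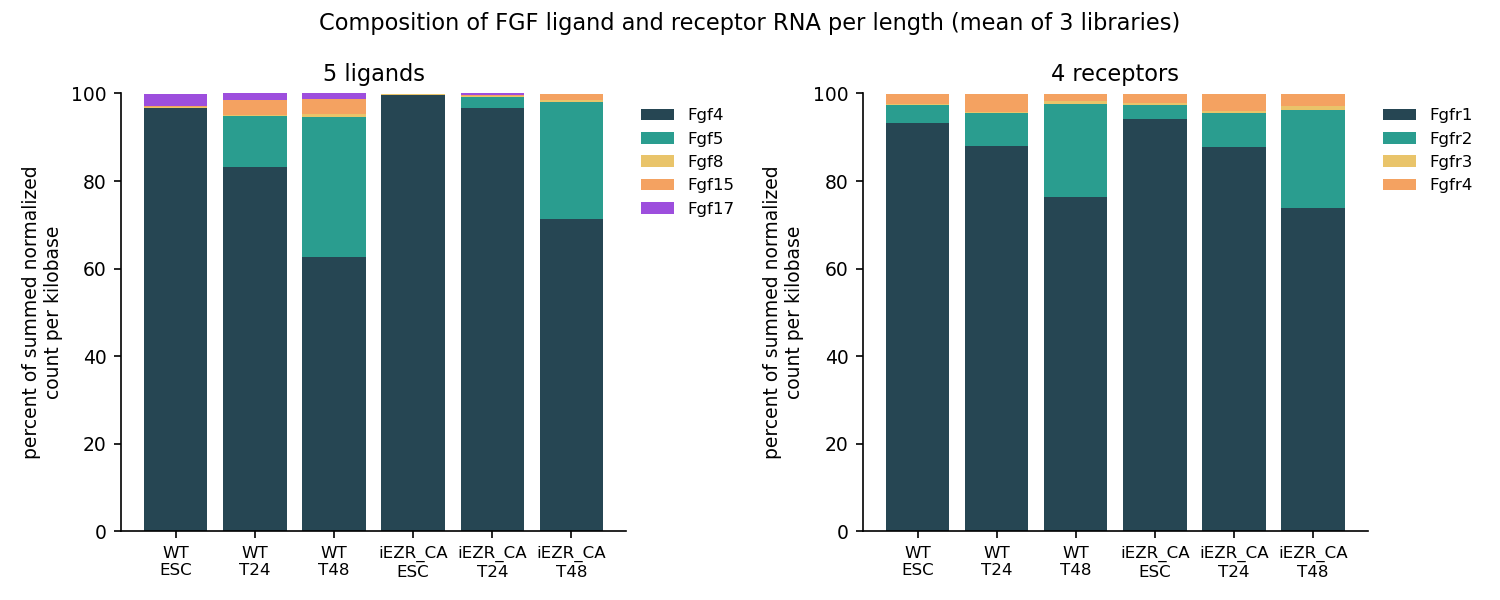
Share of each gene (vertical axis, percent) in the summed normalized count per kilobase of the 5 ligands (left) and the 4 receptors (right) in the 6 groups, as the mean of 3 libraries. Fgf4 and Fgfr1 fill most of each bar, and Fgf5 and Fgfr2 take a growing share with time.

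The genes whose levels followed each member most closely were found by Pearson correlation of log2(normalized count + 1) over the 18 libraries, among the 12801 genes whose mean normalized count reached 50. The libraries share 6 groups and 2 lines, so the values are a description. For Fgf5 they were Slc16a3 (r = 0.993) and Mplkip (0.992), for Fgf15 Cdca7 (0.988) and Smpdl3b (0.986), for Fgf4 Ung (0.981) and Dnajb6 (0.976), and for Fgf17 Arhgef38 (0.959) and Trim35 (0.957). Trim35 is itself a neighbour of Fgf17. For the receptors they were Aldh5a1 (0.985) and Slc16a14 (0.985) with Fgfr1, Abcc1 (0.979) and Camk2g (0.976) with Fgfr2, and Slc23a2 (0.951) and Cep70 (0.944) with Fgfr4. Fgfbp3 ran closest to Kif21b (0.980) and Ptprs (0.976). The low members had looser partners, Stxbp4 (0.863) and Ranbp1 (0.860) for Fgf8 and Tspan33 (0.823) and Rps21 (0.796) for Fgfr3.

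Other genes of the pathway were counted from fixed lists, to show the setting in which the members moved. Their counts are to be read against all genes, of which 26.4%, 30.8% and 31.0% were higher and 28.1%, 30.1% and 30.1% lower at the 3 stages. Of 17 other genes of the FGF family, 9 were tested. In iEZR_CA cells 1, 1 and 0 were higher and 3, 4 and 4 lower at ESC, T24 and T48. The list mixes secreted ligands with intracellular factors, so these counts are not of ligands only. For the 0 at T48, edgeR gave 0 higher at an unadjusted p under 0.05, and DESeq2 called 0. Besides Fgf3, Fgf11 was lower at each stage (log2 -1.47, -0.61 and -1.62). It encodes an intracellular FGF homologous factor, as does Fgf13, which was higher at ESC (0.38) and T24 (0.53). Fgf1 had a mean below the 50 set for naming, and is named after its values were seen. At T24 it stood at 11.9 ± 5.07 normalized counts in iEZR_CA and 93.0 ± 8.16 in WT cells (log2 -2.9, adjusted p = 2e-18). At ESC and T48 its difference did not pass (adjusted p = 0.95 and 0.22). Of 12 receptor cofactors and membrane modulators tested, 5, 6 and 5 were higher and 3, 3 and 6 lower. Fgfbp1, a carrier like Fgfbp3, stood at 145.6 ± 24.3, 954 ± 42.0 and 855 ± 38.3 normalized counts in iEZR_CA cells against 48.5 ± 7.40, 277 ± 9.57 and 368 ± 33.9 in WT cells (adjusted p = 2.3e-16, 2.8e-34 and 1.7e-26). The carriers thus lay on opposite sides at T48. Cdh2, the N-cadherin that binds FGFR1, was lower at ESC (log2 -1.01) and T24 (-1.25), and Il17rd, an inhibitor of FGF signalling at the membrane, was higher at T48 (0.86).

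Among 20 genes of heparan sulfate chains and their carriers, 7, 8 and 6 were higher and 9, 9 and 10 lower in iEZR_CA cells, beside the same 26.4%, 30.8% and 31.0% of all genes higher and 28.1%, 30.1% and 30.1% lower. Sulf1, which trims sulfate from these chains outside the cell, was lower at ESC (log2 -1.07, adjusted p = 2.4e-28) and T24 (-1.01, 2.9e-32). Sulf2, an enzyme of the same activity, was higher at ESC (0.20, 1.2e-08), T24 (0.44, 8.3e-22) and T48 (0.78, 2e-33). The syndecan Sdc4 was higher at T24 (0.88, 1.3e-35) and T48 (0.76, 6.7e-28). Hs6st2, of the same list, was lower at T24 (-2.09, 1.1e-11) and T48 (-1.13, 1.6e-15). Among 23 adaptors and members of the RAS-ERK cascade, 12, 10 and 12 were higher and 6, 7 and 4 lower. Braf was lower at T24, with 1547 ± 50.9 normalized counts in iEZR_CA and 2996 ± 178 in WT cells (log2 -0.94, adjusted p = 7.6e-11). The scaffold Ksr1 was lower at ESC (-0.21) and higher at T24 (0.69) and T48 (1.10). Of 8 genes of receptor uptake, 4, 6 and 7 were higher and 1, 2 and 1 lower. Cltc, the clathrin heavy chain, was lower at each stage (log2 -0.44, -0.60 and -0.31), and the dynamin Dnm2 was higher at T48 (0.88). The list medians were within 0.3 of 0 on the log2 scale except for the other FGF family genes, at -0.93, -0.61 and -0.33. Those of the FGF family list were -0.58 and -0.54 at ESC and T24 with genes at the floor of counting set to their bound.

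Markers of other cell types were read beside the members, since some of these types use FGF receptors themselves. Of all genes, 26.4%, 30.8% and 31.0% were higher and 28.1%, 30.1% and 30.1% lower in iEZR_CA cells at ESC, T24 and T48. The counts of marker calls below are to be read against these shares. The 10 primitive endoderm markers summed to 2252 to 2353 normalized counts in WT ESCs and 4541 to 4862 in iEZR_CA ESCs, to 733 to 785 and 1662 to 1768 at T24, and to 1593 to 1682 and 1167 to 1203 at T48. In ESCs 4 of the 10 were higher in iEZR_CA cells and 3 lower, so the larger sum was not shared by all of them. At T24, when Fgfr2 and Fgfr4 were higher in iEZR_CA cells, 4 of these 10 were higher, and at T48 1 was higher and 7 lower. Sox7 was at the floor of 3 counts or fewer per library in iEZR_CA ESCs and T48 cells. The 8 trophoblast markers summed to 237 to 260 in WT and 1132 to 1173 in iEZR_CA cells at T24, with 5 of 7 tested higher, and Cdx2 was at the floor in both. Neuroectoderm markers summed to 1644 to 1726 in WT T48 cells and 904 to 943 in iEZR_CA T48 cells, where Fgfbp3 was also lower, with 3 of 5 tested lower. In ESCs the trophoblast sum was 2973 to 3027 in WT and 2089 to 2267 in iEZR_CA cells, with 5 of 7 higher and 1 lower. Primitive streak and mesoderm markers summed to 140 to 143 in WT and 254 to 285 in iEZR_CA cells at T48, with 1 of 6 tested higher and 0 lower. At T24 they summed to 139 to 153 in WT and 179 to 210 in iEZR_CA cells, with 4 of 6 higher and 0 lower. In ESCs their sums were 570 to 629 and 681 to 734, with 1 higher and 3 lower. Feeder fibroblast markers stayed at or below 77.2 through T24 and reached 576 to 639 in WT and 359 to 439 in iEZR_CA T48 cells, with Postn at the floor in each group. The pluripotency markers summed to 50692 to 51372 in WT T24 and 70202 to 70835 in iEZR_CA T24 cells. Of these 9 markers, 8 were higher in iEZR_CA cells and 1 lower, both at T24 and at T48. In ESCs 5 of the 9 were lower and 0 higher. The part of these cell types in the differences of the members was not tested.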

How the data were processed

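The authors sequenced polyA RNA with paired-end reads, trimmed them with Trim Galore (0.6.5 in the submitters' notes), aligned them to GRCm38 (mm10) with GSNAP and counted reads per gene with HTSeq on an Ensembl annotation. The deposited values are raw counts per gene for 18 libraries, in a table of 53801 genes, 92 spike-ins and 5 lines of unassigned reads. Unassigned reads, including those not aligned, took 21.3% to 24.3% of a library and were left out of library sizes and tests. Symbols and coordinates came from GENCODE M21 (GRCm38), which held 53620 of the genes and lacked 181, and promoter sequences from RefSeq, which had an entry for 6 of the 10 members.

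The tests were run with edgeR 4.0.16 (R 4.3.3; filterByExpr by group, TMM, robust quasi-likelihood test, 12 residual degrees of freedom, Benjamini-Hochberg threshold 0.05), in 1 fit with a term per group. Normalized counts used size factors of DESeq2 1.42.0. A group with at most 3 counts in each library was held to be at the floor, where ratios of summed counts with exact conditional binomial 95% intervals are given, which cover counting error only. Fitted fold changes of such genes depend on the prior count. The SE was worked back from the test, as the size of the log2 fold change over the square root of its F statistic. Where counts are low the fold change depends on the prior count, and so does this SE. The 95% intervals of fitted log2 fold changes are a normal approximation from the SE, not the test itself. Such an interval can be wholly negative or wholly positive for a change that did not pass. The fit was checked on simulated data, and the pass mark of that check was lowered for small fold changes after a first run had fallen short of it. The members and gene lists were chosen with earlier results of these data known. All 10 members are named. From each list the 2 genes highest and the 2 lowest by log2 fold change, with adjusted p under 0.05 and a mean of at least 50, could be named. Fgf1 was named outside this rule. Likeness used the 2 highest correlations, and neighbours were protein-coding genes starting within 5 Mb with a mean of at least 50. Alternatives were DESeq2, its size factors, spike-in scaling, 2 other filters, fewer groups in the fit and single libraries left out. For shares they were the longest transcript, single libraries left out and another scaling. A scaling cancels within each library, so it cannot change a share and is no check of it.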

Additional observations from a re-analysis of the deposited data

Results flagged for a closer look

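The change over time differed between the lines for several members, by the test of the interaction itself in edgeR's quasi-likelihood fit with Benjamini-Hochberg adjustment over 18469 genes. Values are log2 fold changes from ESC in iEZR_CA cells minus those in WT cells. From ESC to T24 Fgf4 differed by -0.56 (adjusted p = 1.5e-06), Fgfr1 by 0.27 (8e-08, or 0.38 with spike-in scaling) and Fgfr2 by 0.77 (5.2e-05). In the same span Fgf15 differed by -2.97 (0.0018) and Fgf17 by 2.19 (0.006).

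From ESC to T48 Fgf4 differed by 0.79 (adjusted p = 1.6e-08), Fgfr2 by 0.58 (0.00041), Fgfr4 by 1.09 (0.0011) and Fgfbp3 by -1.77 (1.2e-06). Fgf4 thus had an interaction of opposite sign at the later stage. Fgfr1 differed by 0.09 (0.049), a call lost with DESeq2 (0.13), with DESeq2 size factors (0.099), with spike-in scaling (0.81), with either other filter (0.07 and 0.09) and with only the groups of the contrast (0.087). It was also lost, with adjusted p-values of 0.051 to 0.18, on leaving out WT ESC replicate 2, WT T24 replicate 1, WT T48 replicate 1, 2 or 3, iEZR_CA ESC replicate 2 or 3, iEZR_CA T24 replicate 1 or 2, or iEZR_CA T48 replicate 1 or 2. Fgf5 differed by 3.06 (0.0038) and Fgf17 by 3.41 (3.1e-05). For Fgf5, Fgf15 and Fgf17 the iEZR_CA ESC libraries were at the floor, so the sizes of these interactions depend on the prior count of the fit. That of Fgf5 at T48 was 5.89 without iEZR_CA ESC replicate 3 and 2.35 without replicate 2, and at T24 it was not called (-0.19, adjusted p = 1). The interaction of Fgf17 at T24 was not called without iEZR_CA ESC replicate 2 (0.061) or iEZR_CA T24 replicate 2 (0.087).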

How the results depend on the processing

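Of 90 comparisons of single members, 22 changed their side of the threshold under some alternative. Of the 2105 values under alternatives, 2029 kept their side, 49 lost a call and 27 gained one. The sign changed in 20 values of 13 comparisons, and 0 of these 20 were called in either fit. No paired analysis was possible because the labels carry no replicate numbers. The number of members called at ESC (5) was 2 with spike-in scaling, 2 with at least 10 counts in every library and 3 with only the groups of the contrast in the fit, where 5 and 7 members were tested in the latter settings. With at least 10 counts in every library, where 5 members were tested, 4 were called at T24, 4 and 4 over time in WT cells, 2 and 4 over time in iEZR_CA cells, and 3 and 4 for the interactions. Spike-in scaling lowered the count of all genes called from 10058 to 5506 at ESC, from 11253 to 7129 at T24, from 11282 to 7229 at T48, to 6593 and 6931 over time in iEZR_CA cells and to 2416 and 3881 for the interactions. It moved the median log2 fold change of all genes to 0.13 and 0.13 over time in WT cells and 0.14 and 0.10 in iEZR_CA cells. The share of higher calls went from 50.6% to 61.1% at T24, from 48.6% to 61.6% and 49.9% to 61.8% in WT cells, from 48.4% to 68.9% from ESC to T24 in iEZR_CA cells, and from 56.0% to 68.5% for the interaction at T24. Leaving out single libraries gave 4 to 5 members called at ESC, 6 to 8 at T24, 7 to 8 at T48, 6 to 7 and 7 to 9 over time in WT cells, 4 to 7 and 6 to 8 in iEZR_CA cells, and 4 to 5 and 6 to 7 for the interactions. With the longest transcript as length, the share of Fgfr1 was 74.1% in WT T48 cells, 94.6% in iEZR_CA ESCs and 71.7% in iEZR_CA T48 cells. Fgfr2 then held 4.92%, 8.80% and 24.4% in WT and 3.97%, 9.52% and 26.1% in iEZR_CA cells, and Fgf4 82.0% in WT T24 cells. Spike-ins took 0.874%, 0.575% and 0.643% of all reads in the 3 iEZR_CA T48 libraries. In WT ESCs these shares lay closer together, at 0.816%, 0.836% and 0.884%. Spike-in scaling carries such differences between replicates into the fit. The causes of the changes under alternatives were not tested, except that fewer members or groups entered some fits by construction. Counts of 3 or fewer limit Fgf5, Fgf15 and Fgf17 in iEZR_CA ESCs, and low counts limit Fgf8 and Fgfr3.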
